A study of Danio rerio with 12 samples.

Results

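Among 245646 accessible regions of the zebrafish genome, 370 were open in every sample of endodermal cells exposed to retinoic acid (RA), in none of the endodermal samples exposed to the solvent or to an RA receptor blocker, and in at least 1 sample of non-endodermal (NE) cells. They were chosen by these calls, after overlapping peaks of all 12 samples had been merged into regions. Without the condition on NE cells, the calls gave 1126 RA-gained regions, which is 0.458% of all regions. The 370 regions are therefore the RA-gained regions that at least 1 NE sample also called, and for 186 of them it was 1 sample alone. The other 756 RA-gained regions were called in no NE sample.

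Embryos of the transgenic line Tg(sox17:GFP) were incubated with 1 µM RA, with 1 µM BMS493, an inverse agonist of all RA receptors, or with 0.1% DMSO, the solvent, until the 3-somite stage at 11 hpf. About 10000 GFP+ endodermal cells per sample were then sorted and profiled by ATAC-seq, in which a transposase inserts sequencing adapters where DNA is free of nucleosomes. The NE samples were the GFP- cells of DMSO-treated embryos, so that they mix all other tissues of the embryo and received no added RA. Each of the 4 conditions (RA, BMS493, DMSO and NE) had 3 samples. The transgene reports the sox17 promoter, which is active in endoderm and also in the dorsal forerunner cells, and every sample pools many embryos. Nothing in the labels says whether replicates came from separate matings or days, so the spread between them may be technical.

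RA is made from vitamin A in the mesoderm next to the endoderm and acts as a ligand of the nuclear receptors RAR, which bind DNA together with RXR. Without ligand the receptors recruit corepressors that compact chromatin, and with ligand they recruit coactivators. In vertebrate embryos RA patterns the hindbrain, the somites and the foregut, and it is required for the pancreas, with the hox genes as classical targets in several germ layers. From this background, RA signalling may be active in parts of the NE tissues at the stage studied, which was not measured here.

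The samples differed in depth, with 18928561 to 32052207 tags in all and 11056595 to 22930744 after duplicates had been removed. The peak lists held 51301 peaks in DMSO replicate 1, the shortest, up to 143755 in NE replicate 2, the longest. Because a longer list holds weaker peaks, a region can be missing from a list for want of depth, and fewer open cells and less opening per cell cannot be told apart in these bulk samples. The labelled cell type was checked at the start sites of 10 endodermal and pancreatic regulators with a known position, among them gata6, sox32 and hnf1ba. Within 5 kb of them lay 40 regions, and the mean number called per sample was 23.3 in NE and 22.3 in each of the 3 endodermal conditions. Not 1 of the 40 regions was called in each of the 9 endodermal samples and in no NE sample, so that the labels could not be checked by calls at these genes. The genes sox17 and foxa2 were not analysed here.

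The first question was how often RA-gained regions were open in NE cells. Of the 1126 RA-gained regions, 32.9% were called in at least 1 NE sample (370 regions, 95% Wilson interval 30.2 to 35.7%). The same rule was applied to the other treatments. Of 40 DMSO-gained regions, called in 3 DMSO samples and in none of the 6 RA and BMS493 samples, 57.5% were called in NE (23 regions, interval 42.2 to 71.5%). Of 88 BMS493-gained regions, 54.5% were called in NE (48 regions, interval 44.2 to 64.5%). Over all 15954 regions called in exactly 3 endodermal samples, whatever the treatment, the share was 62.5%. The share was lower for RA-gained regions than for each of these sets, and its interval did not overlap the others. The intervals treat regions as independent and cover counting error only. All shares rest on the same 3 NE samples, so that the intervals do not test the difference. All 3 NE samples called 7.73% of RA-gained, 17.5% of DMSO-gained and 18.2% of BMS493-gained regions and 13.8% of those called in exactly 3 endodermal samples. By this count too RA-gained regions had the lowest share, while the other sets stood in another order. NE replicate 2 carried much of each share, and without it the shares were 20.2% for RA, 31.7% for DMSO and 38.6% for BMS493. Without DMSO replicate 1, the sample with the shortest list, the share of DMSO-gained regions was 56.3%.

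**Figure D1:**
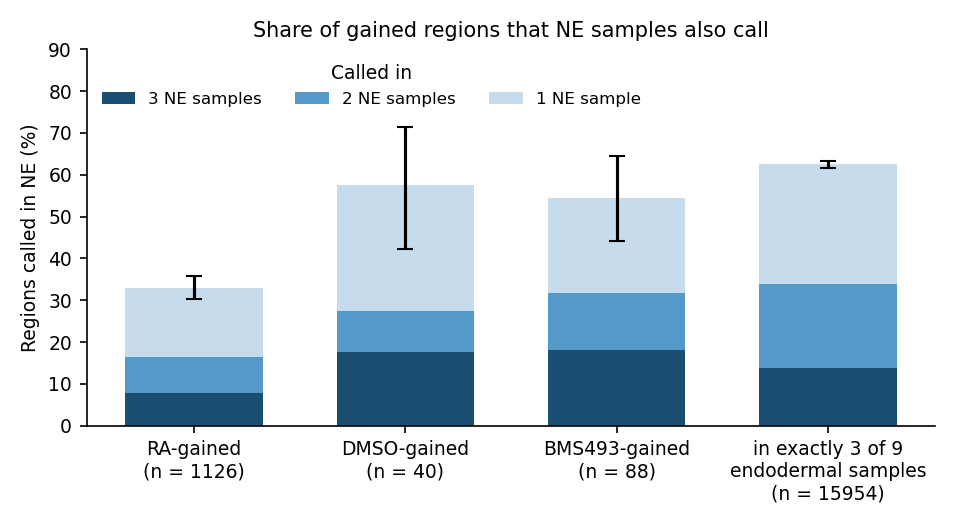
Share of regions, in percent, that NE samples also called, for regions gained in all 3 samples of RA, DMSO or BMS493 and for regions called in exactly 3 of the 9 endodermal samples. Colours split each bar by the number of NE samples, and error bars are 95% Wilson intervals of the whole bar. The RA-gained bar ends at 32.9%, below the 57.5%, 54.5% and 62.5% of the others.

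Seen from the NE side, RA had the highest count of the treatments for calls in all 3 samples, but not for calls in 1 sample. The 3 NE samples all called 3446 regions that no endodermal sample called. A further 87 regions were called in all 3 NE and all 3 RA samples and in neither other treatment, which is 2.05% of the 4237 regions called in all 3 NE samples and absent from DMSO and BMS493. The corresponding numbers were 7 of 4531 regions (0.154%) for DMSO and 16 of 4292 (0.373%) for BMS493. Regions called in 1 sample of the treatment numbered 517 for RA, 903 for DMSO and 696 for BMS493. Those called in 2 samples numbered 187, 175 and 134. Since the RA calls chose the regions, these numbers are a description, and the short list of DMSO replicate 1 limits the DMSO count.

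How firmly the NE samples held the 370 regions open varied. There were 186 regions called in 1 NE sample, 97 in 2 and 87 in all 3. NE replicate 2 called 318 of the regions (85.9%), NE replicate 3 called 176 (47.6%) and NE replicate 1 called 147 (39.7%), in the order of the lengths of their lists (143755, 103930 and 95779 peaks). NE replicate 2 alone accounted for 141 regions, or 38.1% of the 370, against 26.5% of all regions called in NE. All 3 NE samples together called 23.5% of the 370, against 36.4% of all regions called in NE. For these 141 regions, the opening in NE cells rests on 1 library with the deepest list. The split by number of NE samples was similar in other regions with few endodermal calls. Of 9970 regions called in NE and in exactly 3 endodermal samples, 2196 were called in all 3 NE samples and 4583 in 1. Without NE replicate 2, 229 regions met the rule.

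**Figure D2:**
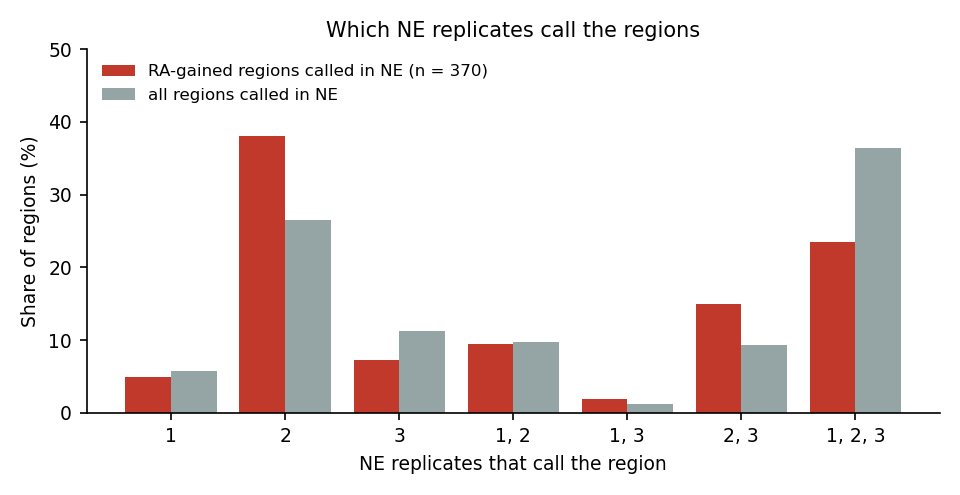
Share of regions, in percent, by the combination of NE replicates that called them, for the 370 RA-gained regions called in NE (red) and for all regions called in NE (grey). NE replicate 2 alone holds 38.1% of the 370 regions against 26.5% of all, and the 3 replicates together hold 23.5% against 36.4%.

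The heights of the peaks placed most of the 370 regions in the lower part of each list. Height is given as the percentile rank of the pileup (how many extended tags cover the summit) among all peaks of the same sample. A rank of 100 is the highest peak and 0 means not called. The median rank was 37.6, 37.3 and 34.6 in RA replicates 1, 2 and 3, at a median pileup between 9 and 10 tags. The median fold enrichment over the local background was 5.29, 4.80 and 5.21. By comparison, the 39388 regions called in all RA and all NE samples had median ranks of 79.8, 72.6 and 68.6 in the same RA samples. The 756 RA-gained regions not called in NE had median RA ranks of 37.6, 41.7 and 34.6. The mean rank of the 370 regions minus that of the 756 was −1.29, −1.36 and −3.13 points in the 3 RA samples (mean −1.93 ± 1.04 SD, n = 3). It was below 0 in each of them but became 0.49 with lists of the same length, and 3 paired samples cannot give an exact two-sided permutation p under 0.25.

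The strength of the calls was compared inside and just outside the rule. The weakest of the 3 RA peaks of a region had a median −log10(q) of 3.71, and in 263 regions (71.1%) it was at least 3. Just outside the rule lay 783 regions called in all 3 RA samples and in 1 of the 6 DMSO and BMS493 samples. Their weakest RA peak had a median −log10(q) of 3.78, and their single DMSO or BMS493 peak a median rank of 29.6. The single NE peak of the 186 regions called in 1 NE sample had a median rank of 27.6, which is as low. A further 1195 regions were called in 2 of 3 RA samples. When every list was shortened to its 51301 peaks with the smallest q, 42 of the 370 regions kept all 3 RA peaks and 97 kept an NE peak, but only 8 kept both. The shortened lists gave 213 regions under the same rule, of which 205 were called in a DMSO or BMS493 sample of the full lists, and the share of RA-gained regions called in NE was then 23.1%.

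In the 87 regions called in all RA and all NE samples, height could be compared between the cell types. Their median ranks were 37.6, 32.9 and 34.6 in RA and 43.3, 63.1 and 52.7 in NE. They were lower in RA, by a median of 9.5 rank points (quartiles −25.8 to 2.8, RA minus NE), while all 39388 regions called in the same 6 samples differed by a median of −2.4. The mean RA rank was the lower one in 62 of the 87 regions (71.3%), against 62.5% of the 39388 regions. All 3 RA ranks lay below all 3 NE ranks in 22 regions (25.3%, background 13.3%) and above them in 7 (8.05%, background 8.30%). The rule kept regions that DMSO and BMS493 samples did not call, and these are low in endodermal cells, so that these shares describe the regions and are no test. On the scale of fold enrichment, the medians were 5.39, 4.58 and 5.24 in RA and 4.94, 5.60 and 5.21 in NE, and RA was below NE in all samples for 13 regions (14.9%, against 6.53% of the 39388).

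**Figure D3:**
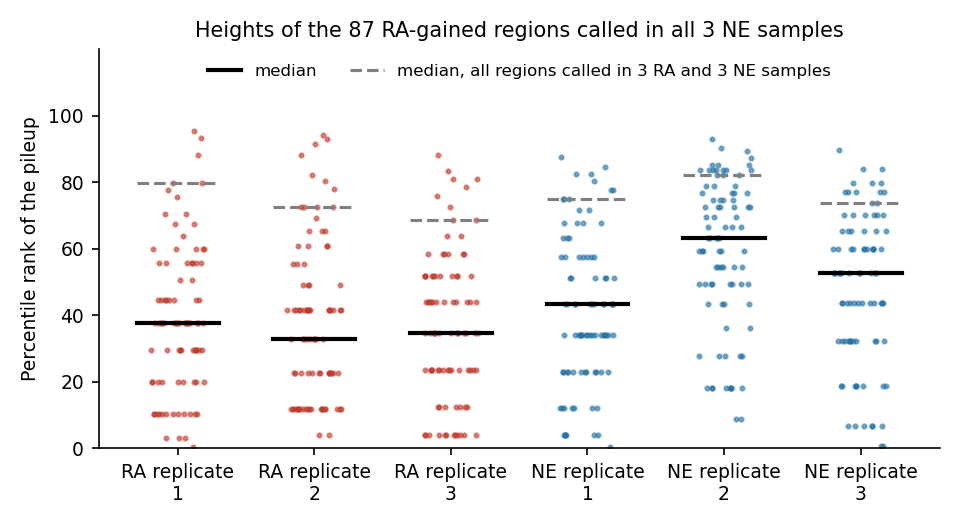
Percentile rank of the pileup in each RA (red) and NE (blue) sample for the 87 RA-gained regions called in all 3 NE samples, each point 1 region. Black lines are medians (37.6, 32.9 and 34.6 in RA, 43.3, 63.1 and 52.7 in NE) and dashed grey lines the medians over all 39388 regions called in the same 6 samples, which lie higher in every sample.

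The same comparison was made with limma over 127026 regions. Of the 87 regions, 5 were lower in RA than in NE at an adjusted p under 0.05 (5.75%), and 1 was higher (1.15%). The fit pools the spread of all 4 conditions, and the rule puts the 6 DMSO and BMS493 ranks of these regions at 0. This lowers the estimated spread, and the rule used the RA and NE calls, so that the limma p-values of these regions are descriptive. Of all 370 regions, 59 were higher in RA than in NE (15.9%) and 5 lower (1.35%). The rule favours the first direction, since it asks for a call in every RA sample but in only 1 NE sample. Over all regions tested, 6.85% were lower and 4.77% higher in RA. Among the 39388 regions called in all 6 samples, 1.62% were lower and 2.76% higher. At an unadjusted p under 0.05, 17 of the 87 regions were lower and 3 higher. Leaving out a sample also changes which regions meet the rule. The number lower in RA was then 1 of 92 without NE replicate 2, 3 of 123 without NE replicate 3, 3 of 133 without RA replicate 2, 9 of 122 without RA replicate 1, 9 of 190 without RA replicate 3 and 11 of 182 without DMSO replicate 3. The region with the largest difference, on chromosome 23 at positions 7662947 to 7663360 of the Zv9 assembly, had ranks of 19.9, 11.9 and 3.85 in RA and 77.8, 87.4 and 84.1 in NE. The difference was −71.2 rank points (limma SE 13.3, adjusted p = 0.00238), and it passed the threshold in all 17 alternative fits, with no overlap between the groups. Its RA pileups were low, at 8, 7 and 6 tags, and limma did not call it higher in RA than in DMSO (adjusted p = 0.978).

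The other regions lower in RA lay on chromosome 1 (43175160 to 43175538), chromosome 25 (2802165 to 2802495), chromosome 13 (47070443 to 47070860) and chromosome 9 (3408488 to 3408819). The one on chromosome 1 was 13.6 kb from the start of lrrtm1 and the one on chromosome 13 was 29.9 kb from that of fgfr2, a receptor of fibroblast growth factors, but neither was assigned to these genes in the annotation described below. Their differences were −55.0, −53.3, −49.7 and −48.9 rank points, with limma adjusted p of 0.0125, 0.0185, 0.0178 and 0.0377. Their RA pileups were 7 to 13 tags, and none was called higher in RA than in DMSO (limma adjusted p = 0.888, 0.844, 0.933 and 0.648). RA and NE ranks did not overlap in any of the 4, and RA replicate 1 was the highest RA sample on chromosome 9, at 55.6 against 22.6 and 23.5. In fold enrichment, RA and NE did not overlap on chromosomes 1 and 9, but RA reached 5.25 on chromosome 13 and 6.17 on chromosome 25, above the lowest NE values of 5.16 and 5.24. Each of the 4 lost its call in at least 1 alternative fit, without RA replicate 2 in every case, where the adjusted p was 0.0765, 0.108, 0.0903 and 0.170. On chromosome 9 the call was made in 7 of 17 alternative fits.

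The gene msi2a encodes an RNA-binding protein of the Musashi family. Among the 87 regions, the 1 higher in RA lay in an intron of this gene, on chromosome 10 at 38876632 to 38877008. Its ranks were 77.8, 55.5 and 81.1 in RA and 12.1, 27.6 and 6.58 in NE. The pileup was 20, 12 and 18 tags in RA against 7, 10 and 5 in NE. All RA samples were above all NE samples, by 56.1 rank points in the mean (limma SE 13.6, adjusted p = 0.0113). The fold enrichment was 8.55, 4.58 and 8.13 in RA and 4.31, 4.26 and 3.68 in NE. Fitted under 16 alternatives, the call was made in 14, and its adjusted p was highest at 0.0695 without NE replicate 3. By mean rank the next regions in this direction lay on chromosome 25 (15583911 to 15584230) and about 40 kb from hs6st1a, a heparan sulfate sulfotransferase gene, with differences of 43.9 and 32.7 rank points that did not pass (limma adjusted p = 0.0704 and 0.0922).

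The comparisons of RA with the other treatments were used by the rule and are given as a description. limma called 18 of the 370 regions higher in RA than in DMSO (4.86%, background 0.194%) and 46 higher in RA than in BMS493 (12.4%, background 0.625%). The first number was 0 in 11 of the 12 limma fits that left out 1 sample, where 172 to 565 of the regions meeting the rule had an unadjusted p under 0.05. With a replicate block the numbers were 0 and 18. The rule also set the comparison of NE with DMSO in part, since it asks for an NE call and allows no DMSO call. As a description, NE was higher than DMSO in 44 regions (11.9%, background 4.91%). All of them were among the 87 called in every NE sample. None of the 370 regions was called lower in RA than in DMSO or BMS493, nor was any at an unadjusted p under 0.05. The rule allowed no other outcome, since it puts every DMSO and BMS493 rank of these regions at 0.

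Genes were named from the study's annotation of regions on chromosomes 1 to 14 of Zv9. This annotation covers regions that the study had selected on these same samples as more open in RA than in BMS493, so an entry is not independent evidence for a region. Of the 226 regions on these chromosomes, 94 (41.6%) had an assigned gene, against 257 of 432 RA-gained regions not called in NE (59.5%). The 94 regions were assigned to 85 genes at a median distance of 30.1 kb from the start site. In the annotation 40 of them were distal intergenic, 26 intronic, 24 in what it calls a promoter and 4 exonic. Only 3 lay within 1 kb and 24 within 10 kb of a start site, and 30 lay over 50 kb away.

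By mean RA rank, the highest region called in all NE samples lay 1.43 kb upstream of znf503, which encodes a zinc finger repressor of the hindbrain and eye, on chromosome 13 at 17515393 to 17515700. Its ranks were 95.5, 94.3 and 88.3 in RA and 67.7, 83.8 and 77.0 in NE, with pileups of 38, 31 and 22 tags against 14, 25 and 14. Every RA sample was above every NE sample, but the difference of 16.5 rank points did not pass the test (limma SE 14.3, adjusted p = 0.583). The fold enrichment was 6.66, 6.92 and 5.74 in RA and 3.15, 3.39 and 3.60 in NE. The upper quartile of rank over the 370 regions was 55.6, 55.5 and 51.8 in the same RA samples, so that this region was far above most of them.

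Genes of the Ski family, which encode corepressors of TGF-beta signalling that also act on nuclear receptors, were represented by 3 of the regions. The region assigned to skila lay 1.10 kb downstream of its start site on chromosome 2 (37071935 to 37072301), in what the annotation calls a promoter. This region had ranks of 93.4, 93.0 and 75.8 in RA and 71.6, 72.4 and 70.0 in NE. It was 1 of the 8 regions kept with lists of the same length. Both regions assigned to skia, on chromosome 8, were intronic. The one 28.7 kb from the start site (18006604 to 18007144) had ranks of 77.8, 80.3 and 92.7 in RA and 0, 76.9 and 65.4 in NE. The one 65.4 kb away (17970199 to 17970448) had 55.6, 69.2 and 51.8 in RA and 43.3, 66.5 and 73.8 in NE. In rank, RA was above NE in every sample for skila and for the nearer skia region, and the groups overlapped for the farther one. In fold enrichment, skila had 8.98, 8.19 and 5.58 in RA against 5.03, 4.05 and 4.31 in NE. The farther skia region had 3.37, 3.70 and 3.60 in RA against 4.18, 3.98 and 5.87 in NE, so that on this scale every RA sample was below every NE sample.

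Of the genes that make, degrade or carry RA, none was assigned a region among the 6 with a position, although dhrs3b, a retinal reductase gene, had one at 12.3 kb. Its ranks were 55.6, 32.9 and 23.5 in RA and 12.1, 8.87 and 0 in NE. Among receptors and cofactors, nrip1b, a ligand-dependent corepressor gene, had a region 27.7 kb upstream on chromosome 10 (39710093 to 39710275). It had ranks of 44.6, 55.5 and 44.0 in RA and was called in NE replicate 2 alone, at 49.5. The related gene nrip1a had a region at 32.2 kb that was called in NE replicate 3 alone, at 18.7, with RA ranks of 37.6, 32.9 and 23.5. The retinoid receptor genes raraa, rarab, rxrga and rxrgb had no such region within 50 kb.

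The hox genes, which set position along the body axis, and their cofactors formed a list in which 7 of 18 genes with a position had such a region within 50 kb, against 114 of all 1503 genes with a position (7.58%). The list, and the 7, include skap1, a neighbour of the hoxb cluster that is neither a hox gene nor a cofactor. The positions come from 2 kinds of genes in the study's lists. Some were assigned to regions that differed between RA and BMS493 in these same samples, and others were RA-regulated genes with an RAR site. Nearness to an RA-gained region is thus partly built into both shares. The 7 genes also share 6 regions, so that no test was made. In the hoxc cluster on chromosome 23, the region over the start site of hoxc1a (36229404 to 36229658) had ranks of 77.8, 82.3 and 78.7 in RA and 43.3, 0 and 59.8 in NE. Upstream of hoxc4a, at 12.4 kb, a region (36169833 to 36170037) had ranks of 83.1, 72.6 and 58.4 in RA and 0, 76.9 and 70.0 in NE. Between both, a region at 36201489 to 36201727 had 50.5, 65.3 and 51.8 in RA and was called in NE replicate 2 alone, at 59.2. Each of the 3 was thus missing from at least 1 NE sample, and only the first had all RA ranks above all NE ranks.

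In the hoxb cluster on chromosome 12, a single region of 153 bp (28708342 to 28708494) was assigned to the microRNA gene dre-mir-10a, 2.44 kb from its start. It lay 3.68 kb upstream of hoxb1b and 7.65 kb downstream of the start of hoxb5b, and 19.5 kb from skap1. It had ranks of 70.5, 72.6 and 68.6 in RA, which varied little, and it was called in NE replicate 2 alone, at 54.6. The hox cofactor gene pbx1b had an intronic region 10.6 kb from its start site on chromosome 6 (2075054 to 2075397). Its ranks were 3.18, 41.7 and 58.4 in RA and 33.9, 43.4 and 32.3 in NE, so that the RA samples spread more widely than the NE samples and the groups overlapped. The region near tshz1, a zinc finger gene that acts with hox genes, lay 43.4 kb upstream on chromosome 19 (21801229 to 21801493). Its ranks were 50.5, 32.9 and 44.0 in RA, and NE replicate 2 alone called it, at 8.87.

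Of 9 genes of signalling pathways with a position, 3 had such a region within 50 kb, which were skia, skila and fgfr1a. Over all genes with a position the share was 7.58%, and the lists in this paragraph are too short to be compared with it. The gene fgfr1a, a receptor of fibroblast growth factors, was assigned a region 9.18 kb from its start site on chromosome 8 (53793039 to 53793382). Its ranks were 44.6, 41.7 and 63.9 in RA and 51.1, 72.4 and 52.7 in NE, and they overlapped. Of 4 epidermal genes with a position, 1 had such a region within 50 kb. This was foxi3b, at 13.5 kb, with ranks of 63.9, 55.5 and 23.5 in RA and 0, 76.9 and 52.7 in NE. Of 10 neural and neural crest genes with a position, 2 had such a region, znf503 and tfap2c. The region of tfap2c, at 30.0 kb, had ranks of 19.9, 49.2 and 23.5 in RA and 18.0 in NE replicate 2 alone. No region lay within 50 kb of the 10 endodermal and pancreatic regulators or the 8 mesodermal genes with a position, which at the 7.58% of all genes is too few genes to read anything from.

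**Figure D4:**
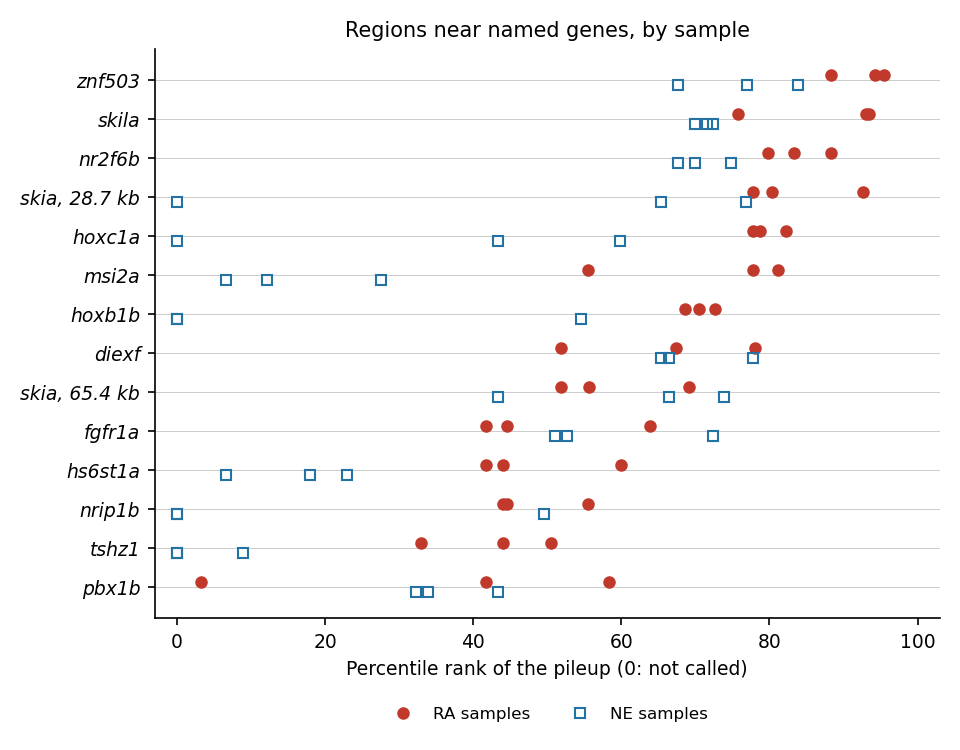
Percentile rank of the pileup in each RA sample (filled red circles) and NE sample (open blue squares) for regions assigned to or nearest the genes named, ordered by mean RA rank. All RA samples lie above all NE samples for znf503, skila, nr2f6b and msi2a, among others, while for skia at 65.4 kb, fgfr1a, diexf, nrip1b and pbx1b the samples overlap, and squares at 0 are NE samples that did not call the region.

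Regions named for their RA height, with no gene from the lists, followed the same variety. The region 3.92 kb from nr2f6b, an orphan nuclear receptor gene, on chromosome 11 (6145974 to 6146316) had ranks of 79.8, 88.3 and 83.3 in RA and 67.7, 74.8 and 70.0 in NE. The difference of 13.0 rank points did not pass (limma SE 14.3, adjusted p = 0.686). On chromosome 4 (44075601 to 44076179) lay the region with the next highest mean RA rank after skila. Its ranks were 88.1, 91.4 and 81.1 in RA and 75, 83.8 and 77.0 in NE. Its fold enrichment was 3.27, 3.62 and 3.37 in RA and 3.27, 3.08 and 3.39 in NE. On this scale the groups overlapped, and each RA value was below the median of the 370 regions in its sample. Near diexf, a nucleolar protein gene, the ranks were 67.4, 78.0 and 51.8 in RA and 77.8, 66.5 and 65.4 in NE. On chromosome 10 (27856053 to 27856633) the RA ranks fell below all NE ranks, with 79.8, 65.3 and 34.6 against 84.5, 89.4 and 89.8. Its difference of −28.0 also did not pass (limma adjusted p = 0.316).

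The regions called in 1 NE sample held peaks as high in RA as those called in all 3. The highest on a chromosome lay on chromosome 3 (23850613 to 23850815), with ranks of 85.8, 84.0 and 86.9 in RA and 80.7 in NE replicate 2 alone. On chromosome 21 (33307143 to 33307645) the RA ranks were 85.8, 87.0 and 83.3, with 83.8 in NE replicate 2. In both, NE replicate 2 reached nearly the RA height while the other NE samples had no peak. NE replicate 2 was also the only NE sample to call the regions on chromosome 18 (33003024 to 33003351) and chromosome 17 (17763070 to 17763441), at ranks of 66.5 and 59.2. Their RA ranks were 84.6, 91.4 and 75.8, and 75.6, 84.0 and 78.7. By limma both were higher in RA than in NE, with adjusted p of 0.0256 and 0.0221. The regions on chromosomes 3 and 21 did not pass (limma adjusted p = 0.0510 and 0.0620). The highest of all lay on an unplaced scaffold, with RA ranks of 92.2, 95.8 and 98.9 and 99.6 in NE replicate 3. Its fold enrichment in RA was 3.78, 2.27 and 2.43, that on chromosome 3 was 3.68, 3.96 and 4.98 and that on chromosome 21 was 4.03, 3.98 and 4.08. Every one of these values was below the median of the 370 regions in its sample.

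The 8 regions kept with lists of the same length were picked out after their values had been seen. They included, beside skila, an exonic region 21.2 kb from the start of myf6, a muscle regulatory gene, with ranks of 73.2, 72.6 and 51.8 in RA and 43.3, 36.2 and 0 in NE. Another lay 39.4 kb from olig3, a neural transcription factor gene, with 67.4, 41.7 and 58.4 in RA and 51.1, 63.1 and 0 in NE. The remaining ones were on chromosomes 12, 15, 20 and 25 and on a scaffold. The one on chromosome 20 (52722107 to 52722475) had 70.5, 60.8 and 68.6 in RA and 43.3, 63.1 and 0.799 in NE, and the one on chromosome 25 (15583911 to 15584230) had 67.4, 80.3 and 58.4 in RA and 3.83, 18.0 and 52.7 in NE. Also named after the values had been seen, the region assigned to meis1, a hox cofactor gene 91.2 kb away, had ranks of 83.1, 80.3 and 63.9 in RA and 71.6, 88.5 and 0 in NE.

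More than 1 region was assigned to 3 genes, which besides skia were si:dkey-209n16.2 and 5S_rRNA. The regions of si:dkey-209n16.2 lay 54.9 and 78.0 kb upstream of it. They had ranks of 55.6, 32.9 and 23.5, and of 60.0, 60.8 and 34.6, in RA, and were called in NE replicates 2 and 3. The name 5S_rRNA stands for many near-identical gene copies, to which 8 regions on several chromosomes were assigned, so that its count tells nothing of 1 locus. One of them, on chromosome 4 (15270733 to 15271005), was among the regions with the largest excess of RA over NE, with ranks of 37.6, 41.7 and 51.8 in RA and 23.0, 18.0 and 32.3 in NE (limma adjusted p = 0.388).

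Position and shape were examined next, and the rule limits them in part. RA and NE peaks had to fall in 1 merged region, which bounds the distance between their summits. No DMSO or BMS493 peak could lie in the region, which affects the gaps to regions that those samples called. The regions had a median width of 274 bp (quartiles 229 to 335, range 102 to 746), against 237 bp for the 756 RA-gained regions not called in NE. A merged region widens with the number of peaks in it, and regions called in 4, 5 and 6 samples, whatever the condition, had median widths of 234, 255 and 277 bp. By the number of NE samples (1, 2 or 3), the widths of the 370 regions were 260, 269 and 333 bp. The single RA peaks had nearly the same widths as in the regions not called in NE, with medians of 167, 151 and 146 bp against 163, 156 and 145 bp.

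Within a region, RA and NE peaks had their summits at nearly the same place. The median distance between summits was 45.0 bp for pairs of an RA and an NE sample and 40 bp for pairs of RA samples. Of these pairs, 54.2% and 59.2% lay within 50 bp. Regions called in 3 RA and at least 1 NE sample, with 4 to 6 calls in all, had medians of 44.0 and 41.0 bp. The order was thus the same in these regions with as many calls.

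Along the genome, the nearest region called in all 12 samples was at a median of 16527 bp, and it was within 10 kb for 36.5% of the regions, against 37.6% of all regions with 4 to 6 calls. At shorter distances the shares parted, with 3.51% against 8.12% within 1 kb, 1.62% against 5.71% within 500 bp and 0.270% against 2.39% within 100 bp. The RA-gained regions not called in NE also had lower shares, with 4.23%, 2.51% and 1.19% at these distances. Another RA-gained region lay within 10 kb of 22 regions (5.95%), against 7.14% of the RA-gained regions not called in NE and 1.97% of all regions with 4 to 6 calls. For 20 of the regions (5.41%) a region called in a DMSO or BMS493 sample lay within 100 bp, against 3.84% of the RA-gained regions not called in NE and 11.4% of regions with 4 to 6 calls. Chromosome 5 held 27 of the regions (7.30%, against 5.41% of all regions), and 11 lay on unplaced scaffolds.

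Few of the regions overlapped an RAR binding site from the lists used here, which hold sites near RA-regulated genes and sites in conserved elements. The tshz1 region above overlapped 1 of the sites near genes raised by RA (0.270% of the 370 regions, against 0.0733% of all regions). A region on chromosome 8 (34081409 to 34081840), with ranks of 29.4, 72.6 and 63.9 in RA and 33.9, 49.5 and 59.8 in NE, overlapped a site near lmx1bb, from the list of genes lowered by RA (0.270%, against 0.0293% of all regions). No region overlapped a site in a conserved element, which 0.0415% of all regions did. The lists hold a small part of all RAR sites, so that these counts cannot give the share of the regions bound by the receptor.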

How the data were processed

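The deposited files were 12 peak lists, which the authors made by mapping paired reads to the Zv9 assembly with Bowtie2 and calling peaks in each sample alone with MACS2 2.1.1.20160309 (shift 40, extension 80, q 0.05, 1 duplicate kept per position, no control). Each deposited list gives the pileup (the signal at the summit, in extended tags), the fold enrichment (a ratio to a local background) and, as −log10, a p-value and a q-value, none of them scaled between samples. Read counts were not used here, and a missing call can reflect depth. List length did not follow tag counts alone. NE replicate 3 had the fewest tags after filtering, 11056595, but 103930 peaks, while BMS493 replicate 1 had 15419065 tags and 75611 peaks. The headers of the NE lists carry other library numbers than the labels, and the labels were used.

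Peaks sharing at least 1 bp were merged (Python 3.11.15, numpy 2.4.6, pandas 2.3.3, scipy 1.17.1; checked against bedtools 2.31.1). Percentile ranks of the pileup, 0 where not called, were fitted with limma 3.58.1 in R 4.3.3 (trend, robust) over the 12 samples, using the 127026 regions that at least 3 samples called. The Benjamini-Hochberg adjusted threshold was 0.05. The steps were tested on simulated data. Intervals are 95% Wilson intervals.

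The regions and gene lists were chosen with earlier results of these data known. Regions named were the 10 with the highest mean RA rank among those called in 3 NE samples, the 5 highest among those called in 1, and the 5 with the largest difference between RA and NE in each direction. Genes named were those assigned at least 2 regions, and those of the lists assigned at least 1. List genes within 50 kb were added after their values had been seen. Gene positions came from all rows at hand of the study's lists, including chromosomes listed only in part. RAR sites came from lists that were complete. Sequences were not analysed here. Alternatives were ranks of −log10(q), a −log10(q) of at least 3, lists of the same length, merging within 100 bp, peaks covering 50% of a region, chromosomes 1 to 25, no filter on the number of samples, the replicate block, the width of the RA peaks, and leaving out each sample.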

Additional observations from a re-analysis of the deposited data

How the results depend on the processing

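The number of regions stayed within 1.5 times of 370 in 10 of 17 alternatives. It was 213 with lists of the same length and ranged from 229 (without NE replicate 2) to 927 (without RA replicate 3) when 1 sample was left out. The regions called in all 3 NE samples numbered 51 where a call needed 50% cover of a region, and ranged from 89 to 190 with 1 sample left out. Of the 370 regions, 234 met the rule at a −log10(q) of at least 3, 350 with merging within 100 bp, 88 with 50% cover and 8 with lists of the same length. The share of RA-gained regions called in NE was 23.1% with lists of the same length, 29.1% with 50% cover, and ranged from 20.2 to 39.4% with 1 sample left out. For DMSO and BMS493 it ranged from 31.7 to 73.8% and from 38.6 to 62.1%, and in lists of equal length it was 59.0 and 43.2%.

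Of regions called in all 3 NE samples, limma called 5 of 87 lower in RA than in NE, 3 of 87 with no filter and 14 of 67 in lists of equal length. With 1 sample left out it called 1 to 11, among 89 to 190 regions. For RA above DMSO it was 1 with ranks of −log10(q), 79 with lists of the same length, then 0 without a filter, where 267 regions had an unadjusted p under 0.05, and ranged from 0 to 18. For RA above BMS493 it was 22, 93 and 7 in the same order, and ranged from 0 to 67. For NE above DMSO it ranged from 20 to 88. With the replicate block, these numbers were 4, 0, 18 and 39, with 290 regions under an unadjusted p of 0.05 for RA above DMSO. Deviations of samples with the same number were weakly correlated between RA and NE (−0.062, −0.007 and −0.009). Over the other pairs of conditions examined, the correlations ranged from −0.154 to 0.073. These values cannot show whether such samples share a day or batch, and the NE lists carry other library numbers than the labels.

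The mean RA rank of the 370 regions minus that of the 756 not called in NE was −1.93, became 0.49 with lists of the same length, and ranged from −3.35 to −1.05 with 1 sample left out. The median width was 286 bp at a −log10(q) of at least 3 and with merging within 100 bp, 332 bp with lists of the same length, and 155 bp for the RA peaks. With equal lists, 2.82% of the regions had another RA-gained region within 10 kb, and 7 overlapped an RAR site. The alternatives for the DMSO-gained and BMS493-gained shares, for RA against BMS493, for NE against DMSO, for the neighbours and for the RAR sites were chosen after seeing the data. Lists of the same length drop peaks by construction, and the cause of the other shifts was not tested.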
